A study of Mus musculus with 8 samples.

Results

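The 46 genes described here encode the non-collagen proteins of the extracellular matrix: elastic fibres and their microfibrils (16 genes), laminins and other basement membrane proteins (10 genes), small and large proteoglycans (6 genes) and matricellular or adhesive glycoproteins (14 genes). They were listed by name, without a threshold on any measured value but with earlier results of these data known. They were matched to probes by gene symbol or gene identifier. The older symbol Lamb1-1 was accepted for Lamb1, which was found under its current symbol. Of the 46 genes, 41 were measured among 16593 genes in all. Fbn1, Efemp2, Lama5, Fn1 and Spp1 were not analysed here.

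Total RNA came from an immortalized mouse brown adipocyte line, fat cells of the heat-producing kind grown in culture, and was measured on 8 arrays. All cells had been differentiated for 8 days. The control group (4 arrays) then received the vehicle DMSO for 18 h, and the treated group (4 arrays) received the small molecule Z16078526 at 10 µM for 18 h. The stated purpose was to characterize what the compound does to brown adipocytes. No strain, sex, age or genetic change other than immortalization is given in the labels, and all samples come from a single line in culture at 1 dose and 1 time.

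The extracellular matrix is the protein and sugar scaffold that cells secrete around themselves. Elastic fibres consist of a core of crosslinked elastin laid on fibrillin microfibrils, and they let a tissue stretch and recoil. Each fat cell is wrapped in a basement membrane, a thin sheet in which a laminin network is tied to a collagen IV network by nidogens and the proteoglycan perlecan, while matricellular proteins sit in the matrix without building it and tune how cells attach and how growth factors act.

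Values are the intensities deposited by the authors, set to at least 16 (the floor), and differences are on the log2 scale, Z16078526 minus DMSO, with a standard error (SE) or 95% interval from limma over 4 arrays a group. Genes with an adjusted p under 0.05 (limma, Benjamini-Hochberg over all 16593 genes) are described as called. Between 13528 and 13564 of 25697 probes exceeded the floor on an array, and the correlation of log2 values between arrays, taken across genes, was 0.9929 or more within the groups and 0.9888 to 0.9925 between them. Mean intensities of the 10 measured fat cell markers in DMSO ran from 36.8 (Retn) to 35530 (Lpl). Adipoq (22832) and Pparg (11194) were bright, whereas Fabp4 (93.2) was dim. Of the 9 brown fat markers, Cidea (1062), Cox8b (1163), Zic1 (1072), Ebf2 (856) and Ppargc1a (253) were clearly above the floor in DMSO, Ucp1 had a mean of 29.3, Elovl3 lay at the floor in DMSO, and neither Dio2 nor Prdm16 exceeded the floor anywhere. Z16078526 arrays 1 and 3 stood apart in opposite directions along the main axis of variation within groups, which held 31% of the deviations from the group means. The labels do not say that the 4 samples of a group were separate cultures, so the p-values rest on a spread that may be technical, that between these samples. In bulk RNA, fewer cells of a type and less RNA per cell cannot be told apart.

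Treated cells had less RNA for 16 of the 41 measured matrix genes, and no matrix gene was called higher. With the floor of 16, the decreases were largest for Eln (tropoelastin), at 4.19-fold, and for Spon2 (spondin 2), at 4.03-fold. Eln lay near the floor in treated cells. With a floor of 50 the log2 difference was -1.13 for Eln and -2.01 for Spon2, so their order depends on the floor. The decreases included the laminin chains Lamb2 and Lamc1, perlecan (Hspg2), agrin (Agrn), both nidogens (Nid1 and Nid2), decorin (Dcn), biglycan (Bgn) and Sparc. Over all genes, 7.19% were called lower, well under the members' share of 39%, and 7.97% were called higher, against none of the members. At an unadjusted p under 0.05 in limma, 20 members were lower and 2 were higher, Lama2 and Matn2. The median log2 difference was -0.31 over the 41 measured members and 0 over all genes.

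Signal level bears on these shares. Of the measured members, 6 lay at the floor on all 8 arrays (Fbln5, Mfap4, Mfap5, Lum, Postn and Spon1), which leaves 35 that could be called. Among these, 45.7% were lower, against 10.8% of the 11089 genes above the floor on at least 1 array. Among the 19 members with a mean log2 intensity above 7, 14 were lower, or 73.7%, against 17.3% of 6210 genes, and their median log2 difference was -0.61 against 0.018. In 18 members every treated array lay below every DMSO array, which held for 9.2% of all genes and for 13.8% of genes above the floor on at least 1 array. In 0 members did every treated array lie above, which held for 10.6% of all genes. The 18 were the 16 called genes plus Tnc and Thbs1.

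**Figure D1:**
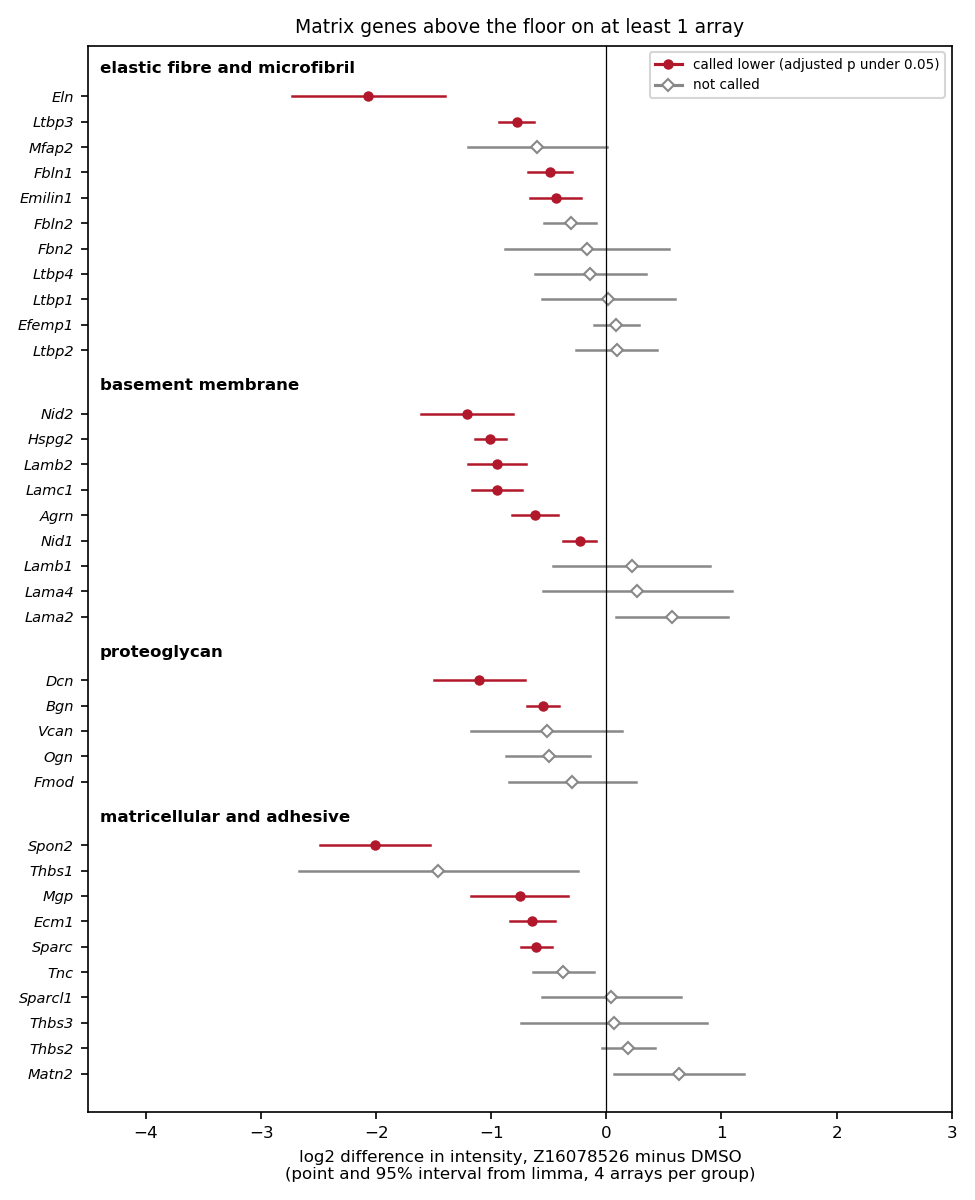
The log2 difference in intensity (horizontal axis, Z16078526 minus DMSO, point and 95% interval from limma with 4 arrays a group) for the 35 matrix genes above the floor on at least 1 array, grouped by role. Filled red points are the 16 genes called lower, which reach from -0.23 (Nid1) to -2.07 (Eln), and open grey diamonds are the 19 genes that were not called, whose intervals are mostly wider.

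The promoter windows of called members are shown for the gene of each role group that had the smallest p among those with a window, since these genes fell together and a reader may want their start regions in view. RefSeq windows of 300 bases (250 before to 50 after the gene's start, GRCm38.p6) matched 30 of the 46 members and 10 of the 16 called ones. Each is printed 5′ to 3′ on the gene's own strand, and capitals mark a match to a motif searched on both strands: TATAAA for the TATA box, GGGCGG for SP factors, TGANTCA for AP-1, GGAATG for TEAD factors, CAGACA for SMAD factors and the CArG box for SRF. The Ltbp3 window is at chr19:5740650-5740949 on the plus strand, that of Hspg2 at chr4:137468553-137468852 on the plus strand, that of Bgn at chrX:73483351-73483650 on the plus strand and that of Sparc at chr11:55420031-55420330 on the minus strand.
Ltbp3: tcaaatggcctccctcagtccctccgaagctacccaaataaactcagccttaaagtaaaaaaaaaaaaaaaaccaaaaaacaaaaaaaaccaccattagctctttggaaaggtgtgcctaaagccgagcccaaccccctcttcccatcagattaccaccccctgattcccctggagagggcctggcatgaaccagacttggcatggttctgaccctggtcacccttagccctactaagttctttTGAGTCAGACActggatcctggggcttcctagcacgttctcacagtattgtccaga
Hspg2: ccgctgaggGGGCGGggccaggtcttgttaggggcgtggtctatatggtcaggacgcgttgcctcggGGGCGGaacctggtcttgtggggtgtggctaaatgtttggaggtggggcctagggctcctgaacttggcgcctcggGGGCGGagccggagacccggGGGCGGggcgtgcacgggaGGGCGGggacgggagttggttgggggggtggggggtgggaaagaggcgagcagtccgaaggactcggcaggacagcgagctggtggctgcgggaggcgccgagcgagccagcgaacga
Bgn: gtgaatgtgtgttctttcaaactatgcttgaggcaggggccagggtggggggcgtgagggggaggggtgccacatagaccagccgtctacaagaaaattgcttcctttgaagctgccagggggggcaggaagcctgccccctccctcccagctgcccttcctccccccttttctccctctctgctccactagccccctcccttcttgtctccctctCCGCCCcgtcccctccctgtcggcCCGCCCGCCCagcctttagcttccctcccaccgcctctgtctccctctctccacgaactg
Sparc: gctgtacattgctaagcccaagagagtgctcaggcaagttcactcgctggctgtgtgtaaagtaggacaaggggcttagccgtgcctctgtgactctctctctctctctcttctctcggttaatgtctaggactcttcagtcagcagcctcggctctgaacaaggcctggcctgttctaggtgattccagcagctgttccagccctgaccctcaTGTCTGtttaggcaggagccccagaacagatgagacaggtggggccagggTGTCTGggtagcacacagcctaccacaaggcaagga

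In the Ltbp3 window the capitals hold 1 TGANTCA match that overlaps 1 CAGACA match. The Hspg2 window, with a GC content of 70.3% against a median of 52.7% over all windows, holds 5 GGGCGG matches, and the Bgn window holds 3, all on the other strand and 2 of them overlapping. The Sparc window holds 2 CAGACA matches on the other strand. Over the 10 called members with a window, CAGACA occurred in 6 (Ecm1, Emilin1, Fbln1, Lamb2, Ltbp3 and Sparc). It occurred in 4 of the 14 uncalled members above the floor with a window, and in 21.0% of all 32851 windows. A member counts here if any of its windows matched, and 10 of the 30 members with a window had over 1. The share of all windows counts each window singly, so it is not a like measure. GGGCGG occurred in 6 of the 10, in 10 of the 14 and in 35.7% of all windows. TGANTCA occurred in 2 of the 10 (Ecm1 and Ltbp3), in 1 of the 14 and in 7.81% of all, TATAAA in 1, 3 and 13.6%, and GGAATG in 1, 2 and 14.7%. The CArG box occurred in none of the 10, in 1 of the 14 and in 1.63% of all. A match is a run of letters and not evidence of binding.

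Of the elastic fibre and microfibril genes, 14 of 16 were measured, 11 lay above the floor on some array and 4 were called lower: Eln, Ltbp3, Fbln1 and Emilin1. The shares to read this and the following role counts against are 7.19% lower over all genes and 10.8% over genes above the floor on at least 1 array. The median log2 difference of the 14 was -0.16. Eln encodes tropoelastin, the soluble subunit that is crosslinked into elastin. Its intensities on DMSO arrays 1 to 4 were 129.5, 102, 95.8 and 113, and on Z16078526 arrays 1 to 4 they were 30.3, 16.2, 38.2 and 24.7. The groups did not overlap, and the lowest treated array stood just above the floor. Eln fell by 2.07 ± 0.28 (SE) on the log2 scale (95% interval -2.73 to -1.4, adjusted p = 0.00462). With a floor of 50 in place of 16 the difference was -1.13, so the size of this fold depends on where the floor is set, and the call held.

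Ltbp3, a latent TGF beta binding protein that holds the inactive growth factor in the matrix, gave much higher signal. It read 6070, 6193, 5372 and 5595 in DMSO and 3546, 3428, 3483 and 3088 in treated cells. The treated arrays lay close together and all below the DMSO arrays, and Ltbp3 fell by 0.78 ± 0.063 (SE) on the log2 scale (95% interval -0.93 to -0.63, 1.71-fold, adjusted p = 0.00082). Fbln1, fibulin 1, a calcium-binding glycoprotein found with elastic fibres and basement membranes, read 1189, 1087, 1061 and 1039 in DMSO and 763, 683, 836 and 844 in treated cells. Again no treated array reached a DMSO array, and Fbln1 was 1.4-fold lower (log2 difference -0.49 ± 0.08 SE, adjusted p = 0.00906). Emilin1, a glycoprotein at the interface of elastin and microfibrils, read 464, 548, 450.3 and 430.4 in DMSO and 369, 372, 317 and 332 in treated cells. Emilin1 was 1.36-fold lower (log2 difference -0.44 ± 0.091 SE, adjusted p = 0.0205), and its call was lost without DMSO array 1 (adjusted p = 0.0562) or without Z16078526 array 4 (adjusted p = 0.0577).

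Among the 7 uncalled genes of this group above the floor, Fbln2 (fibulin 2) lay between 1267 and 1714 in DMSO and between 1135 and 1274 in treated cells, so the groups met at a single array. Its log2 difference was -0.31 (95% interval -0.54 to -0.086, adjusted p = 0.079), and it passed the threshold without DMSO array 1 (adjusted p = 0.0215). Mfap2, a small microfibril glycoprotein, lay between 66.7 and 92.3 in DMSO and between 41.2 and 80.04 in treated cells (log2 difference -0.60, 95% interval -1.2 to 0.0037, adjusted p = 0.202). Ltbp1, another latent TGF beta binding protein, read 282, 334, 342 and 262 in DMSO and 214, 254, 421 and 386 in treated cells. Treated arrays 1 and 2 were below all DMSO arrays and treated arrays 3 and 4 were above all of them, so the mean log2 difference of 0.016 (95% interval -0.56 to 0.6) averages arrays that point opposite ways. Ltbp4 had a log2 difference of -0.14 (95% interval -0.62 to 0.34). Fbn2 (fibrillin 2), Efemp1 (fibulin 3) and Ltbp2 reached at most 33.9, 20.3 and 23.7 on any array, near the floor, where differences carry little information.

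The basement membrane genes had the highest share of calls by role, 6 of 9 measured, and a median log2 difference of -0.62. All 9 lay above the floor on some array. The uncalled Lama2, Lama4 and Lamb1 were dim, with a mean log2 of 4.59, 5.47 and 6.46, whereas the dimmest called gene, Nid2, had 9.12. Role groups differed in how many dim genes they held, so their shares are not like measures. Among all genes with a mean log2 above 7, 17.3% were called lower. Hspg2 encodes perlecan, the large heparan sulfate proteoglycan that bridges the laminin and collagen IV networks. It read 7293, 6349, 6356 and 6794 in DMSO and 3270, 3179, 3546 and 3335 in treated cells. The 4 treated arrays lay within a narrow band far below the DMSO arrays, and Hspg2 fell by 1.01 ± 0.056 (SE) on the log2 scale (95% interval -1.14 to -0.87, 2.01-fold, adjusted p = 0.000449), the smallest adjusted p of the members.

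The laminin chains assemble as trimers of an alpha, a beta and a gamma chain, and 2 of the 5 measured among the members were called. Lamc1, the gamma 1 chain shared by most laminins, read 3789, 3488, 3613 and 3332 in DMSO and 2208, 1752, 1736 and 1699 in treated cells. Treated array 1 was the highest of its group yet still below every DMSO array, and Lamc1 fell by 0.95 ± 0.093 (SE) on the log2 scale (95% interval -1.17 to -0.73, 1.93-fold, adjusted p = 0.0015). Lamb2, the beta 2 chain, read 1559, 1413, 1390 and 1557 in DMSO and 746, 699, 702 and 940.4 in treated cells. Its log2 difference was also -0.95 (± 0.11 SE, 95% interval -1.2 to -0.7, adjusted p = 0.00224), with no overlap. Lamb1, the beta 1 chain, read 96.3, 94, 66.1 and 74.5 in DMSO and 91.3, 122, 125 and 58.8 in treated cells. These groups overlapped widely (log2 difference 0.22, 95% interval -0.46 to 0.9, adjusted p = 0.873). The alpha chains gave low signal: Lama4 (alpha 4) lay between 28.3 and 62.1 in DMSO and between 32.6 and 70.2 in treated cells (log2 difference 0.27, 95% interval -0.55 to 1.09). Lama2 (alpha 2) lay between 16 and 22.8 in DMSO and between 22.8 and 41.7 in treated cells, groups that met at their edges, with a log2 difference of 0.57 (95% interval 0.084 to 1.06) that did not pass the threshold (adjusted p = 0.129).

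Agrn encodes agrin, a heparan sulfate proteoglycan that binds laminin and dystroglycan. It read 2443, 2136, 2582 and 2231 in DMSO and 1420, 1447, 1526 and 1718 in treated cells, and was 1.54-fold lower with no overlap (log2 difference -0.62 ± 0.084 SE, adjusted p = 0.00465). Nid2, nidogen 2, read 847, 973, 846 and 746 in DMSO and 493, 348, 295 and 357 in treated cells. It was 2.32-fold lower (log2 difference -1.21 ± 0.17 SE, 95% interval -1.61 to -0.81, adjusted p = 0.00492). Nid1, nidogen 1, which like nidogen 2 links laminin to collagen IV, read 3394, 3220, 3208 and 3223 in DMSO and 3085, 2829, 2578 and 2621 in treated cells. Its groups did not overlap either, but the decrease was the smallest of the called members, 1.18-fold (log2 difference -0.23 ± 0.06 SE, adjusted p = 0.0445). The Nid1 call was lost when any array other than Z16078526 array 1 was left out (adjusted p from 0.0887 to 0.119).

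All 6 proteoglycan genes were measured. Bgn and Dcn, the small leucine-rich proteoglycans biglycan and decorin that bind collagen fibrils and TGF beta, were called lower, and the median log2 difference of the 6 was -0.51. Bgn, among the brightest members on the arrays, read 18505, 17585, 18553 and 19059 in DMSO and 11564, 12129, 13082 and 13630 in treated cells. With no overlap between groups it fell by 0.55 ± 0.058 (SE) on the log2 scale (95% interval -0.69 to -0.41, 1.46-fold, adjusted p = 0.00189). Dcn read 159, 166, 188 and 157 in DMSO and 97.1, 67.6, 62.3 and 88.1 in treated cells. Every treated array was well below the lowest DMSO array, and Dcn fell by 1.11 ± 0.17 (SE) on the log2 scale (95% interval -1.5 to -0.71, 2.15-fold, adjusted p = 0.00672).

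The other proteoglycans were not called. Ogn (osteoglycin) read 1486, 1351, 1639 and 1220 in DMSO and 869.7, 954, 925 and 1304 in treated cells. Only treated array 4 overlapped with the DMSO arrays. The log2 difference was -0.50 (95% interval -0.87 to -0.14, adjusted p = 0.0802), and without that array Ogn passed the threshold (adjusted p = 0.0201). Vcan (versican, a large hyaluronan-binding proteoglycan) lay between 37.8 and 53.1 in DMSO and between 20.3 and 47.9 in treated cells (log2 difference -0.52, 95% interval -1.18 to 0.14). Fmod (fibromodulin) was above the floor on DMSO arrays 1 and 3 and on no treated array (log2 difference -0.30, adjusted p = 0.632), and Lum (lumican) lay at the floor throughout.

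Of the matricellular and adhesive genes, 12 of 14 were measured, 10 lay above the floor on some array and 4 were called lower: Sparc, Spon2, Ecm1 and Mgp. The median log2 difference of the 12 was -0.19. Sparc encodes osteonectin, a collagen-binding protein secreted by fat cells and their precursors that inhibits fat cell formation. It read 18669, 19149, 18722 and 17801 in DMSO and 13549, 11710, 11710 and 11951 in treated cells. Treated array 1 was the highest of its group and still below all DMSO arrays, and Sparc was 1.52-fold lower (log2 difference -0.61 ± 0.055 SE, 95% interval -0.74 to -0.47, adjusted p = 0.00116). Spon2, a secreted F-spondin relative that binds integrins, read 295, 361, 385 and 378 in DMSO and 74.6, 66.7, 116 and 102 in treated cells. The highest treated array was far below the lowest DMSO array, and Spon2 fell by 2.01 ± 0.20 (SE) on the log2 scale (95% interval -2.49 to -1.53, adjusted p = 0.00157).

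Ecm1, a secreted glycoprotein that binds perlecan and other matrix proteins, read 2828, 2929, 3456 and 2651 in DMSO and 1856, 1856, 1877 and 1961 in treated cells. The treated arrays were nearly equal, and Ecm1 was 1.56-fold lower (log2 difference -0.65 ± 0.08 SE, adjusted p = 0.00331). Mgp, matrix Gla protein, an inhibitor of calcification that also binds bone morphogenetic proteins, read 3701, 2887, 4556 and 3410 in DMSO and 2142, 2320, 1669 and 2481 in treated cells. The spread within both groups was wide but they did not overlap, and Mgp was 1.69-fold lower (log2 difference -0.75 ± 0.18 SE, adjusted p = 0.0338). The Mgp call was lost when any array other than DMSO array 2 or Z16078526 array 4 was left out (adjusted p from 0.0592 to 0.0917).

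Thbs1 and Tnc were lower on every treated array without passing the threshold. Thbs1, thrombospondin 1, an activator of latent TGF beta, read 99.2, 81.6, 76.9 and 68.6 in DMSO and 63.1, 45.9, 16 and 16.2 in treated cells. Treated arrays 3 and 4 lay at or next to the floor while array 1 was near the DMSO range, and the log2 difference of -1.46 (± 0.50 SE, 95% interval -2.67 to -0.25) had an adjusted p of 0.119. Without Z16078526 array 1 it was -1.83 with an adjusted p of 0.0428. Tnc, tenascin C, read 447, 529, 626 and 479 in DMSO and 422, 359.7, 413 and 399 in treated cells (log2 difference -0.38, 95% interval -0.64 to -0.11, adjusted p = 0.0749). Thbs2, thrombospondin 2, was bright and lay between 2566 and 3359 in DMSO and between 3018 and 3574 in treated cells (log2 difference 0.19, 95% interval -0.041 to 0.42, adjusted p = 0.314). Matn2, matrilin 2, did not exceed the floor in DMSO and reached 28.4, 23 and 36 on treated arrays 2, 3 and 4 (log2 difference 0.63, 95% interval 0.062 to 1.2, adjusted p = 0.15). It passed the threshold without treated array 1 (log2 difference 0.84, adjusted p = 0.019). Thbs3 lay between 17.6 and 47.1 and Sparcl1 between 16 and 28.3 over all arrays, with differences of 0.069 and 0.044.

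**Figure D2:**
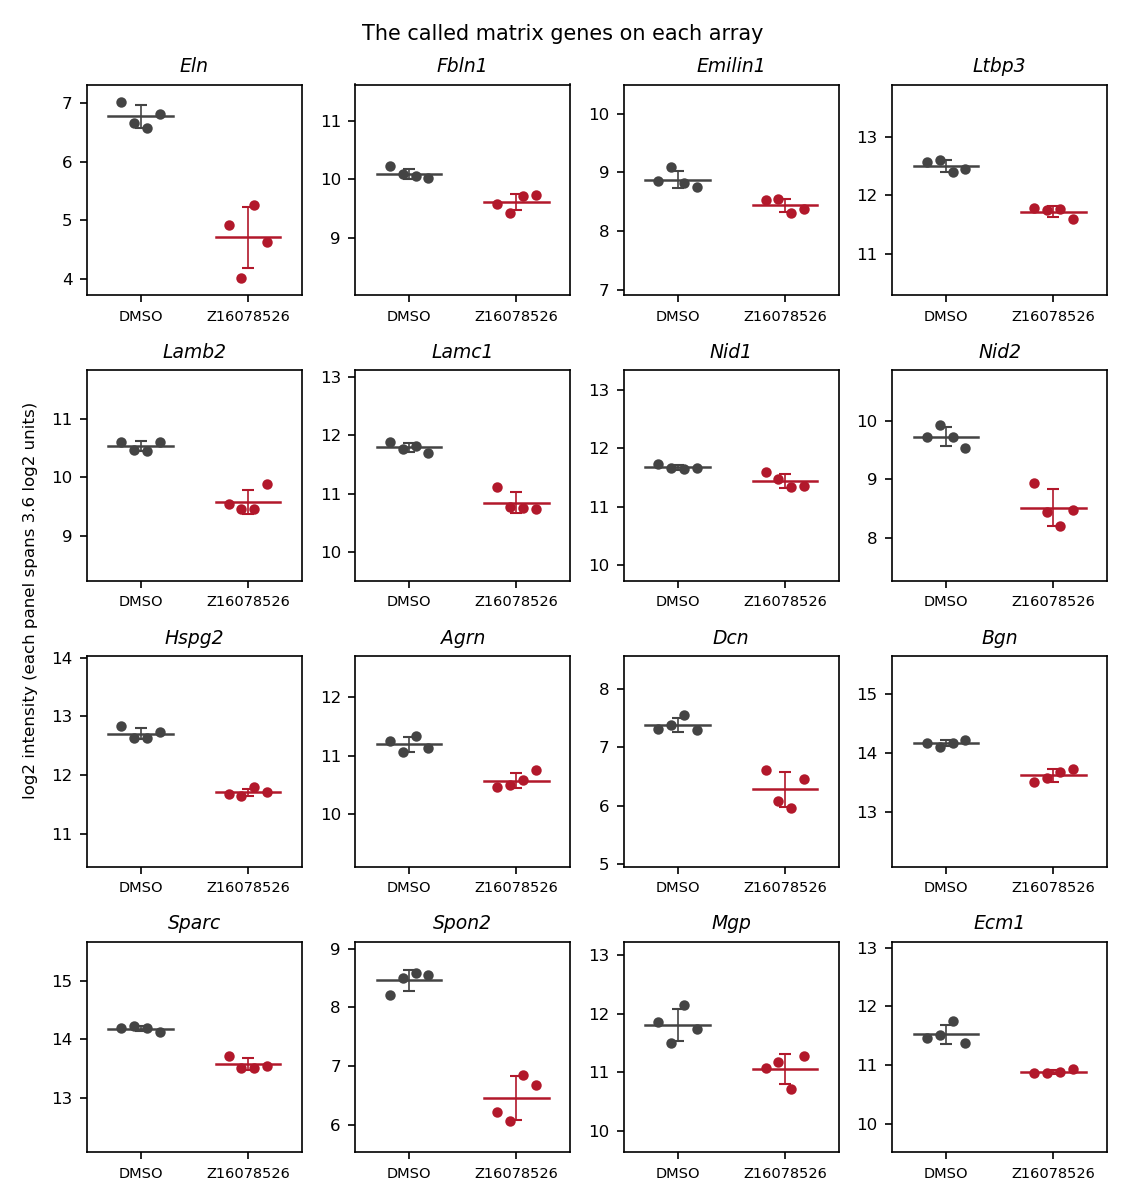
Log2 intensity (vertical axis, with the same span in each panel, set at the gene's own level) of the 16 called genes on each array, with a bar at the group mean and whiskers of 1 SD, 4 arrays a group. In every panel the Z16078526 points lie below the DMSO points, by the widest margins in Eln and Spon2 and by the narrowest in Nid1.

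A second probe on the array gave a separate reading for some members. Of the 41, 13 had over 1 probe, and in 12 of these the second brightest probe rose above the floor on some array. Its log2 difference had the same sign as that of the tested probe in 10 of 12, and the exceptions were Ltbp4 (-0.14 and 0.028) and Thbs3 (0.069 and -0.54), all at low signal. In the 5 called members with such a probe, Fbln1, Ltbp3, Dcn, Sparc and Ecm1, every treated array lay below every DMSO array on the second probe too. Its log2 differences were -0.71 for Fbln1, -1.31 for Ltbp3, -0.64 for Dcn, -0.96 for Sparc and -1.35 for Ecm1. Relative to the tested probe the difference was larger in Fbln1, Ltbp3, Sparc and Ecm1 and smaller in Dcn, whose second probe lay close to the floor. The second Tnc probe gave -0.38, equal to the first, also with no overlap between the groups.

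Related genes were set side by side to see whether their responses differed in size. For 8 pairs of related genes, chosen after their values were seen, the difference between their log2 values was compared across arrays with an exact two-sided permutation test, in which 4 against 4 arrays cannot give a p below 0.0286. The log2 difference of Nid1 minus that of Nid2 was 0.98, and that of Ltbp3 minus that of Ltbp4 was -0.64, each with an exact p of 0.0286 (0.0914 adjusted over the 8 pairs). Lamb1 minus Lamb2 was 1.17, Ltbp1 minus Ltbp3 was 0.79 and Dcn minus Bgn was -0.56, each with an exact p of 0.0571 (adjusted 0.0914). For Fbln1 minus Fbln2, Ltbp1 minus Ltbp4 and Thbs2 minus Thbs3 the values were -0.18, 0.16 and 0.12 (adjusted exact p from 0.419 to 0.771). No pair passed 0.05 after adjustment, which with 8 pairs would take at least 5 pairs at the smallest possible p, so the adjusted values say little for or against a difference within any family.

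**Figure D3:**
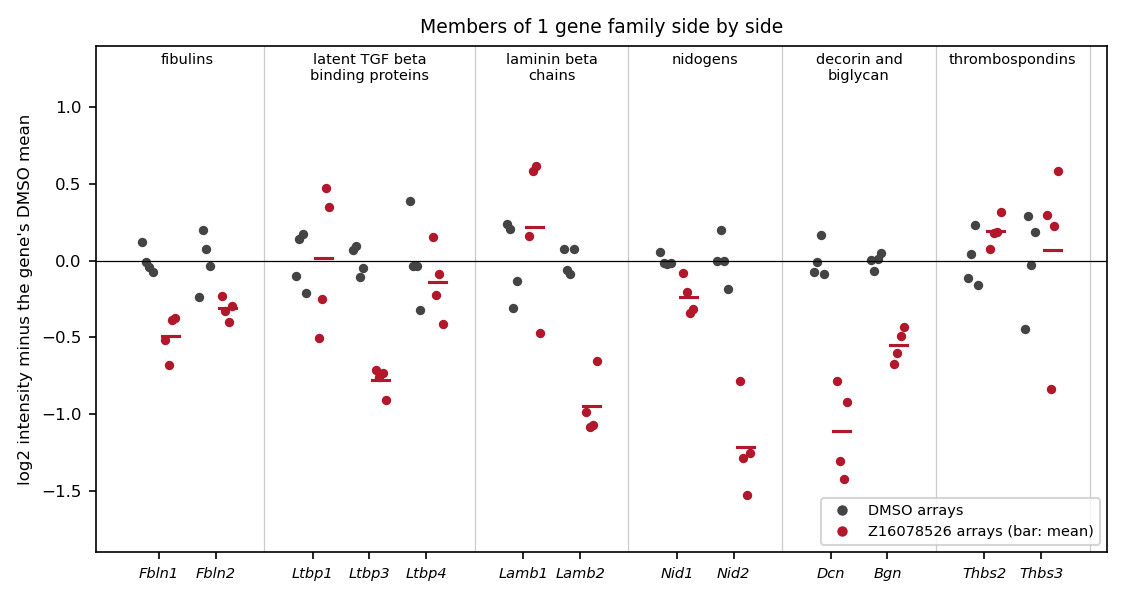
Log2 intensity minus the gene's DMSO mean (vertical axis) on each array for 13 members that belong to gene families, DMSO arrays in grey and Z16078526 arrays in red with a red bar at their mean. Nid2 sits near -1.21 while Nid1 sits near -0.23, and the Lamb2 points lie below those of Lamb1, whose treated arrays spread on both sides of 0.

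The decrease was present on each treated array. Over the 27 members above the floor on all arrays, the median log2 distance from the DMSO mean was -0.67, -0.67, -0.61 and -0.45 on Z16078526 arrays 1 to 4, against -0.073 to 0.034 on the DMSO arrays. Over the 16 called members it was -0.72, -0.73, -0.83 and -0.64, against -0.066 to 0.051. The 16 were called on these same arrays, and in each of them every treated array lay below every DMSO array. Their negative medians therefore follow from the choice of genes. No treated array was the lowest or highest throughout: array 1 was the highest of its group for 6 of the 16 called genes, array 2 for 1, array 3 for 3 and array 4 for 6. With the main axis of variation within groups as a covariate 17 members were lower, and without both Z16078526 arrays 1 and 3 the number was 13. The covariate comes from deviations from the group means, so it cannot change a difference, only its standard error and p. Arrays spread a little more over the 27 members above the floor on all arrays than over all 7965 such genes. The median SD was 0.175 against 0.115 in DMSO and 0.202 against 0.148 in treated cells.

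Genes that build, crosslink or bind this matrix were examined as a wider list of 63 genes that are not members, of which 58 were measured and 46 lay above the floor on some array. Of the 58, 21 were called lower and 1 higher, or 21 and 1 of the 46 above the floor. The shares to read these and the following counts against are 7.19% lower and 7.97% higher over all genes, and 10.8% and 11.9% over genes above the floor on at least 1 array. In elastic fibre assembly 4 of 12 measured genes (9 above the floor) were lower. These were the crosslinking lysyl oxidases Loxl1 (log2 difference -0.56, adjusted p = 0.00208), Loxl2 (-0.91, adjusted p = 0.00616) and Lox (-0.54, adjusted p = 0.0202), and Adamtsl4, which binds fibrillin microfibrils (-1.2, adjusted p = 0.004). Lox read 7200, 7061, 7474 and 6290 in DMSO and 5190, 4116, 4416 and 5615 in treated cells, and its call was lost without DMSO array 1, 2 or 3 or Z16078526 array 3 (adjusted p from 0.0528 to 0.0615). The median log2 difference of this list was -0.055.

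Among the basement membrane partners, 8 of 15 measured genes (14 above the floor) were lower, with a median log2 difference of -0.49. Col18a1, a basement membrane collagen with heparan sulfate chains, read 2358, 2545, 2338 and 2478 in DMSO and 1396, 1340, 1412 and 1415 in treated cells (log2 difference -0.80, adjusted p = 0.000222). The chains of the main collagen IV trimer, Col4a1 and Col4a2, differed by -0.57 (adjusted p = 0.00292) and -0.63 (adjusted p = 0.00316), values next to each other as are those of Lamb2 and Lamc1. Dag1, the laminin receptor dystroglycan (-0.53, adjusted p = 0.00114), the laminin beta 3 chain Lamb3 (-0.58, adjusted p = 0.00183) and Col15a1 (-0.49, adjusted p = 0.00919) were also lower. The laminin-binding integrin subunits Itga3 (-0.51, adjusted p = 0.0268) and Itgb4 (-1.16, adjusted p = 0.0288), named here to complete the count, were lower as well. Itgb4 was dim, between 32.85 and 60.45 in DMSO and between 16 and 30.41 in treated cells, so the size of its difference depends on the floor. In 2 of the 15 measured genes every treated array lay above every DMSO array, which held for 10.6% of all genes. Neither was called: Itga6, the integrin alpha 6 subunit (0.73, adjusted p = 0.1), and Itgb1, the integrin beta 1 subunit (0.49, adjusted p = 0.0849).

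Of 17 other proteoglycans (13 above the floor) 4 were lower, with a median log2 difference of -0.016. They were the membrane proteoglycans Sdc3 (-0.82, adjusted p = 0.000794) and Sdc2 (-0.47, adjusted p = 0.00754), both syndecans, Cspg4, also known as NG2 (-1.2, adjusted p = 0.0022), and the small leucine-rich proteoglycan Podn (-0.97, adjusted p = 0.00692). Syndecans 1 and 4 (Sdc1 and Sdc4) were not called.

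Of 14 other matricellular proteins (10 above the floor) 5 were lower and 1 was higher, with a median log2 difference of -0.23. Tgfbi, an integrin-binding protein induced by TGF beta, read 6772, 6962, 6982 and 6659 in DMSO and 2595, 2440, 2535 and 2431 in treated cells (log2 difference -1.45, 2.74-fold lower, adjusted p = 8.75e-06). Tnxb, tenascin X, differed by -1.18 (adjusted p = 0.00755), at intensities between 74.92 and 98.78 in DMSO and between 30.21 and 45.85 in treated cells. Comp, cartilage oligomeric matrix protein, differed by -1.18 (adjusted p = 0.00814) from DMSO intensities between 25.2 and 43.8, with 1 treated array above the floor. The called CCN genes went in different directions: Ccn5 (-0.70, adjusted p = 0.0187) and Ccn4 (-0.63, adjusted p = 0.0441) were lower, whereas Ccn1 was higher. Ccn1 read 329, 431, 452 and 329.5 in DMSO and 582, 654, 849.7 and 716 in treated cells. It rose by 0.86 ± 0.16 (SE) on the log2 scale (1.82-fold, adjusted p = 0.0143). Ccn2 was not called (-0.18, adjusted p = 0.775), and Ccn3 was not analysed. The Ccn5 call was lost without Z16078526 array 2 (adjusted p = 0.059), and the Ccn4 call was lost when any array other than Z16078526 array 1 or 3 was left out (adjusted p from 0.0746 to 0.115).

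**Figure D4:**
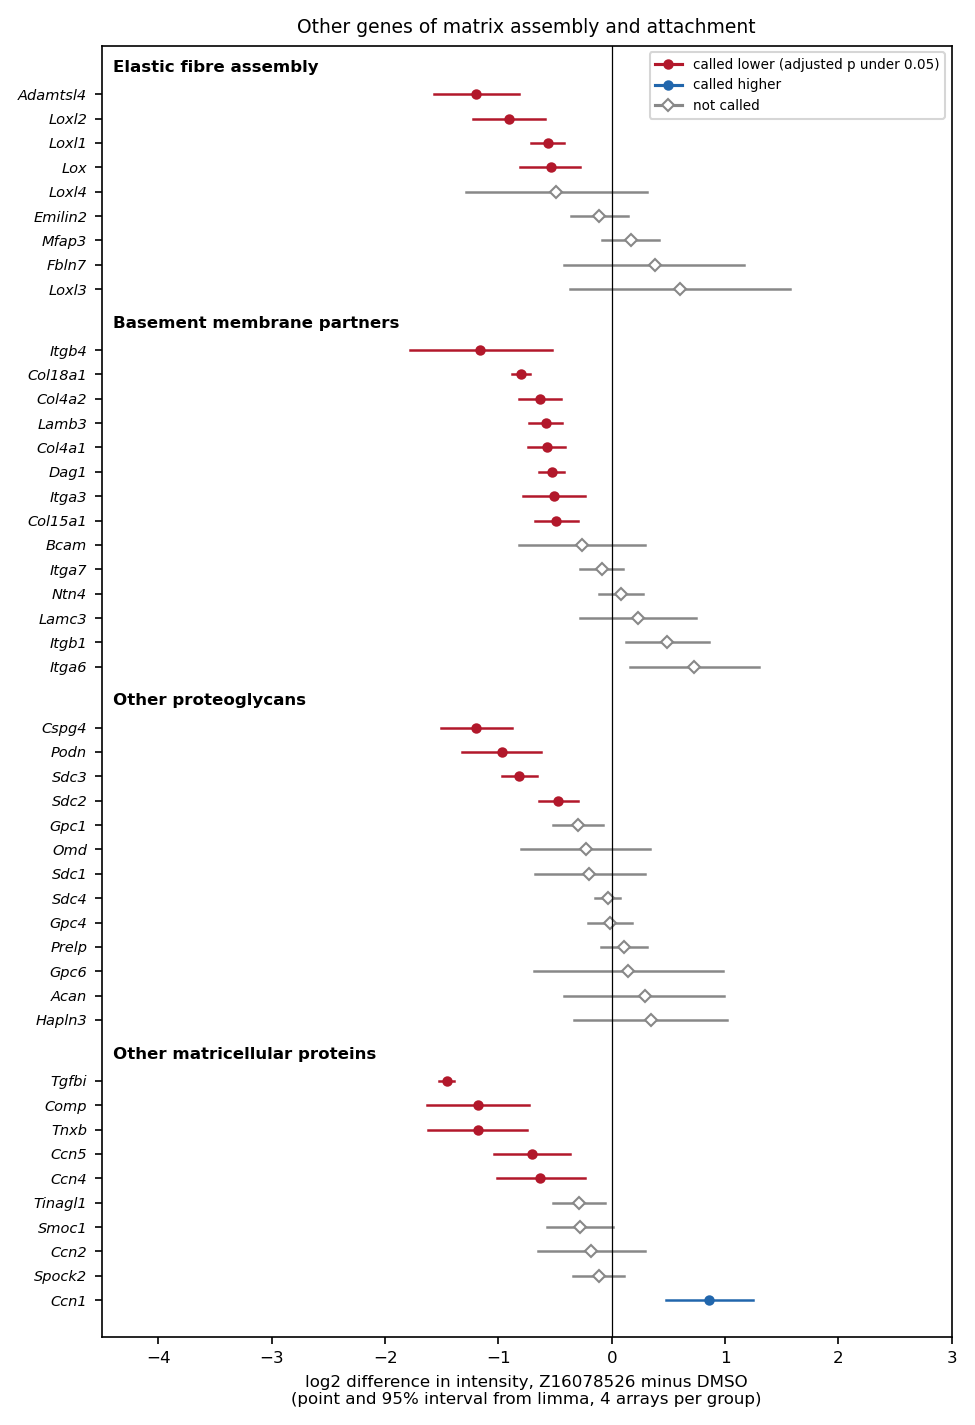
The log2 difference in intensity (horizontal axis, Z16078526 minus DMSO, point and 95% interval from limma with 4 arrays a group) for the 46 other genes of matrix assembly and attachment above the floor on at least 1 array. The 21 red points are called lower, the blue point is Ccn1, called higher at 0.86, and the open grey diamonds were not called.

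Of the marker lists of other cells that make matrix, a few genes were lower in treated cells. The summed intensity of 11 preadipocyte and fibroblast markers was 12624 to 14441 in DMSO and 8475 to 10853 in treated cells. Vim gave most of this signal, and without it, a split made after the values were seen, the other 10 summed to 3893 to 4505 and 3380 to 3868, with a median log2 difference of the whole list of -0.11. Thy1, Pi16 and Dpp4 lay at the floor, and 1 marker was called, Vim (log2 difference -0.63, adjusted p = 0.0349). The receptor Pdgfra, which marks fat cell precursors, differed by -0.11 (adjusted p = 0.684). Pdgfrb differed by -0.24 (95% interval -0.47 to -0.011, adjusted p = 0.175) and Dlk1 by -0.2 (adjusted p = 0.311). Of the markers above the floor, only Cd44 had a difference above 0 (0.051). In 3 of the 11 every treated array lay below every DMSO array: Vim, S100a4 (-0.63, adjusted p = 0.0731) and Pdpn (-0.31, adjusted p = 0.0758). This held for 9.2% of all genes and 13.8% of genes above the floor on at least 1 array. In 0 of the 11 did every treated array lie above. For 8 smooth muscle and pericyte markers the sum was 8443 to 9190 in DMSO and 5610 to 6868 in treated cells, with Acta2 (-0.58, adjusted p = 0.00318) and Des (-0.48, adjusted p = 0.0372) lower and Rgs5 and Lmod1 at the floor. Without Acta2 the other 7 summed to 927 to 1075 and 797 to 969, and the median log2 difference of the list was -0.068. For 9 endothelial markers the sum was 185 to 195.9 and 144 to 158.2, with Cdh5, Kdr, Tie1, Esam and Emcn at the floor and 2 called lower (Sox18 and Tek). Tek lay between 17.5 and 19.5 in DMSO and at the floor of 16 on every treated array, a level where differences carry little information. Without Sox18 the other 8 summed to 129.5 to 148 and 128 to 142, mostly floor values. For 6 macrophage markers it was 96 to 110.3 and 99.6 to 120.7, with Itgam, Ptprc and Lyz2 at the floor and 0 called by limma (0 at an unadjusted p under 0.05). For 10 mature fat cell markers the sum was 76581 to 79806 and 73639 to 79128 (2 lower, 2 higher). Without Lpl, the brightest, the other 9 summed to 41669 to 43941 and 40430 to 43471. Lep (-2.42, adjusted p = 8.15e-05) and Pparg (-0.44, adjusted p = 0.00309) were lower. Fabp4 (1.66, adjusted p = 0.000449) and Cidec (0.85, adjusted p = 0.00186) were higher. For 9 brown fat markers the sum was 4197 to 4681 and 6074 to 7251 (3 higher, Ucp1, Cidea and Cox8b). Without Cox8b the other 8 summed to 3160 to 3449 and 4564 to 5363. The part of these markers' cells in the matrix result was not tested.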

How the data were processed

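The authors deposited 1 table of probe intensities on a linear scale for 25697 probes and 8 arrays. Per the submitters' processing notes GenomeStudio was used. Neither its version nor its settings could be taken from the labels. All arrays had the same upper quartile (307.989), and 28.28% to 28.44% of the values of an array lay below 0. No detection p-values were used, and the number of arrays limits the precision.

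Values under 16 were raised to 16 before the log2 was taken. Probes were named through the series' probe table (23978 with 1 symbol, 1719 with none) and RefSeq of GRCm38.p6, which held 23962 of their gene identifiers and changed 0 symbols. The probe with the highest mean intensity stood for each of 16593 genes, of which 5504 lay at the floor on all arrays. Groups were compared in R 4.3.3 by limma 3.58.1 (two-sided, eBayes with a variance trend after lmFit). The model held only the group, and the prior degrees of freedom were 0.574. The script was tested on simulated data. Adjustment was by Benjamini-Hochberg over all genes, and no test was run over a list.

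The members, the other lists and the tests were chosen with earlier results of these data known. All members are named, with values on every array for called members, up to 6 a role group in order of p. Of the other pathway genes, called ones are named, up to 6 a list in order of p, and the remaining basement membrane partners that are named were added after their values were seen. Values on every array of uncalled members, of some other pathway genes, and the 8 family pairs were chosen after values were seen. Other settings covered normalization, floor, pseudocount, filters on dim genes, probe choice, variance model, the replicate number as a block, the threshold and each array left out. The covariate, the fit without Z16078526 arrays 1 and 3 and every setting for the other pathway genes were added after seeing the data. RefSeq's promoter windows were searched in Python 3.11.15.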

Additional observations from a re-analysis of the deposited data

Results flagged for a closer look

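In 9 of the 67 groups of 4 arrays examined among the members, 1 array stood apart from the other 3 by more than Dixon's 95% critical ratio of gap to range. Chance gives about 1 in 20 groups where values are free to vary. In 4 of the 9 the other 3 arrays lay at the floor, so the ratio is 1 by construction and that rate does not apply, which leaves 5. Among genes above the floor on all arrays, Z16078526 array 1 was the highest for Lamc1 (2208 against 1699 to 1752, ratio 0.881) and for Sparc (13549 against 11710 to 11951, ratio 0.86), DMSO array 1 was the highest for Nid1 (3394 against 3208 to 3223, ratio 0.919) and the lowest for Mfap2 (66.7 against 88.9 to 92.3, ratio 0.885). Near the floor, DMSO array 3 was the highest for Fmod (32.4 against 16 to 18, ratio 0.834) and for Ltbp2 (18.5 against 16, ratio 1). Z16078526 array 4 was the highest for Ltbp2 (23.7 against 16, ratio 1), and Z16078526 array 2 the highest for Fbn2 (33.9 against 16, ratio 1) and for Efemp1 (20.3 against 16, ratio 1).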

How the results depend on the processing

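All 16 called members kept their sign under every setting in which they were tested, and 11 of them kept their call there: Eln, Ltbp3, Lamb2, Lamc1, Nid2, Hspg2, Agrn, Bgn, Sparc, Spon2 and Ecm1. Eln and Dcn were not tested with the filter on a mean log2 above 7. The number of members called lower ran from 12 (replicate block) to 21 (only genes above the floor on at least 4 arrays tested), and from 14 to 16 with each array left out in turn. Ogn, Fbln2 and Tnc, uncalled in the main fit, were called lower with either filter on dim genes and with robust variance. Ogn was also called with array weights. Thbs1 was called with a floor of 50, with the filter on at least 4 arrays and with the covariate. Mfap2 was called with that filter and with a gene's probes averaged. Members called higher numbered 1 with array weights, with the covariate and without both Z16078526 arrays 1 and 3, and 0 to 1 with each array left out. Without both Z16078526 arrays 1 and 3, 2 elastic fibre genes were lower, with Fbln1 at an adjusted p of 0.0504 and Emilin1 at 0.104. Nid1 had an adjusted p of 0.0586 with a floor of 50, and Comp, dim on all arrays, had a difference of 0 there. Other pathway genes called higher numbered 2 with a pseudocount of 16, with a mean log2 above 7, with array weights and with the covariate, 3 with the filter on at least 4 arrays and with robust variance, and 0 at an adjusted p under 0.01.

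Samples with the same replicate number did not deviate together (correlations of -0.064, 0.043, -0.15 and 0.1 over 7965 genes). The labels do not say whether equal numbers share a culture, and low correlations cannot exclude it. With the replicate block, 1 proteoglycan member and 13 other pathway genes were lower, and over all genes 555 were lower and 568 higher, against 1193 and 1323 without it. Under the block the adjusted p was 0.072 for Fbln1, 0.0644 for Nid1, 0.0722 for Dcn and 0.183 for Mgp.

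Changes of sign occurred in uncalled members, and their cause was not tested. With array weights the differences were 0.15 (Fbn2), -0.11 (Ltbp1), -0.0057 (Sparcl1) and -0.21 (Thbs3), and without both Z16078526 arrays 1 and 3 they were 0.1 (Fbn2), -0.12 (Lama4) and -0.12 (Thbs3). With the pseudocount they were -0.3 (Ltbp2), 0.024 (Fmod) and -0.23 (Sparcl1), and with a gene's probes averaged -0.021 (Ltbp1) and -0.43 (Thbs3). With each array left out they ranged from -0.14 to 0.19 for Ltbp1, from -0.052 to 0.14 for Ltbp2, from -0.094 to 0.23 for Sparcl1 and from -0.1 to 0.37 for Thbs3. Signal near the floor limits what can be said of these genes except Ltbp1.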
